A study of Nothobranchius furzeri with 19 samples.

Results

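The genes described here are those that the adult ovary and testis of the turquoise killifish (*Nothobranchius furzeri*, strain GRZ) expressed at roughly similar levels. Embryos and young larvae expressed them at lower levels. Of 26740 genes in the count table, 117 met the rule. A member had at least 30 counts in the ovary and in the testis library, its level differed by less than 1.5 log2 units between these libraries, and the lower of both levels was at least 2 log2 units above the highest mean of the 6 early groups. Levels for this choice were log2(CPM + 1), where CPM is the count divided by the library total and multiplied by 1000000. At least 30 counts in both gonads were reached by 13818 genes, and 9488 of these also had similar gonad levels. The last members inside the rule were 2.006, 2.005 and 2.004 log2 units above the early groups, and the first genes outside it 1.999, 1.997 and 1.996 units.

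The RNA-seq libraries came from females and males of 4 stages. Embryos were taken whole at 10 dpf (days post fertilization). Trunks were taken at the hatching stage, called 0 dph (days post hatching), and at 3 dph. The gonads were from fish of 3 months. There were 3 libraries per sex and stage, except for 2 of females at 0 dph and 1 each of ovary and testis. The labels do not say whether replicates came from separate animals, so the p-values given here measure the spread between these libraries, which may be technical. Total counts lay between 15563687 and 31493908 in the 17 early libraries, were highest at 3 dph, and came to 25875516 in the ovary and 11717979 in the testis. The counts of any pair of replicates of a group differed beyond sampling error (chi-square statistic per degree of freedom of at least 9.82).

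Ovary and testis are built from different somatic cells but share the germ line. In both sexes germ cells multiply by mitosis, enter meiosis, pair and recombine their chromosomes, and protect their genome from transposable elements with small RNAs and germ granule proteins.

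The files name genes only by identifiers. The study's gene table, as far as it was used here, paired 2671 identifiers with a symbol taken from orthologs, among them 18 members, of which 13 carried a gene symbol and 5 a clone-type name. *SAMHD1* and *cdipt* shared their symbol with another identifier, and PVRL3, GDPD5 and FAM190B are marked as copies of a gene pair, so the counts of these 5 genes are uncertain. The 13 genes fall into several roles. *mei4* (Nfu_g_1_000109) acts in the formation of meiotic DNA double-strand breaks in the mouse. *taf4b* (Nfu_g_1_000882) encodes a gonad-enriched subunit of the general transcription factor TFIID, and *lmo4a* (Nfu_g_1_001690) a LIM-only transcriptional regulator. *rpp38* (Nfu_g_1_001153) encodes a subunit of RNase P, *SAMHD1* (Nfu_g_1_001435) an enzyme that degrades deoxynucleotides, *herc2* (Nfu_g_1_014732) a ubiquitin ligase and *pgr* (Nfu_g_1_000271) the progesterone receptor. *cdipt* (Nfu_g_1_000216, phosphatidylinositol synthase), GDPD5 (Nfu_g_1_000225, a glycerophosphodiester phosphodiesterase) and *aldocb* (Nfu_g_1_000457, an aldolase of glycolysis) are enzymes of metabolism. PVRL3 (Nfu_g_1_000647) is the adhesion molecule nectin-3, and FAM190B (Nfu_g_1_000776) and *spryd3* (Nfu_g_1_001822) complete the group.

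In the adult gonads the members had a median of 56.3 CPM in the ovary and 64.5 CPM in the testis. The lowest levels of a member were 3.90 CPM in the ovary and 4.27 CPM in the testis. Together they took 0.953% of the ovary counts and 1.18% of the testis counts (exact 95% binomial intervals 0.949% to 0.956% and 1.17% to 1.19%, which cover counting error only). These values chose the members and are given as a description. On the log2(CPM + 1) scale 35 members were higher in the ovary and 82 in the testis, with a median difference, ovary minus testis, of -0.28, the same as the median of all 13818 genes with at least 30 counts in both gonads. *taf4b* had 52.4 CPM in the ovary and 49.2 CPM in the testis, and *mei4* had 17.5 and 20.4 CPM in ovary and testis. The largest differences inside the rule were those of Nfu_g_1_019631 with 92.1 CPM in the ovary and 32.3 CPM in the testis, and of Nfu_g_1_012793 with 15 CPM in the ovary and 43.4 CPM in the testis.

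**Figure D1:**
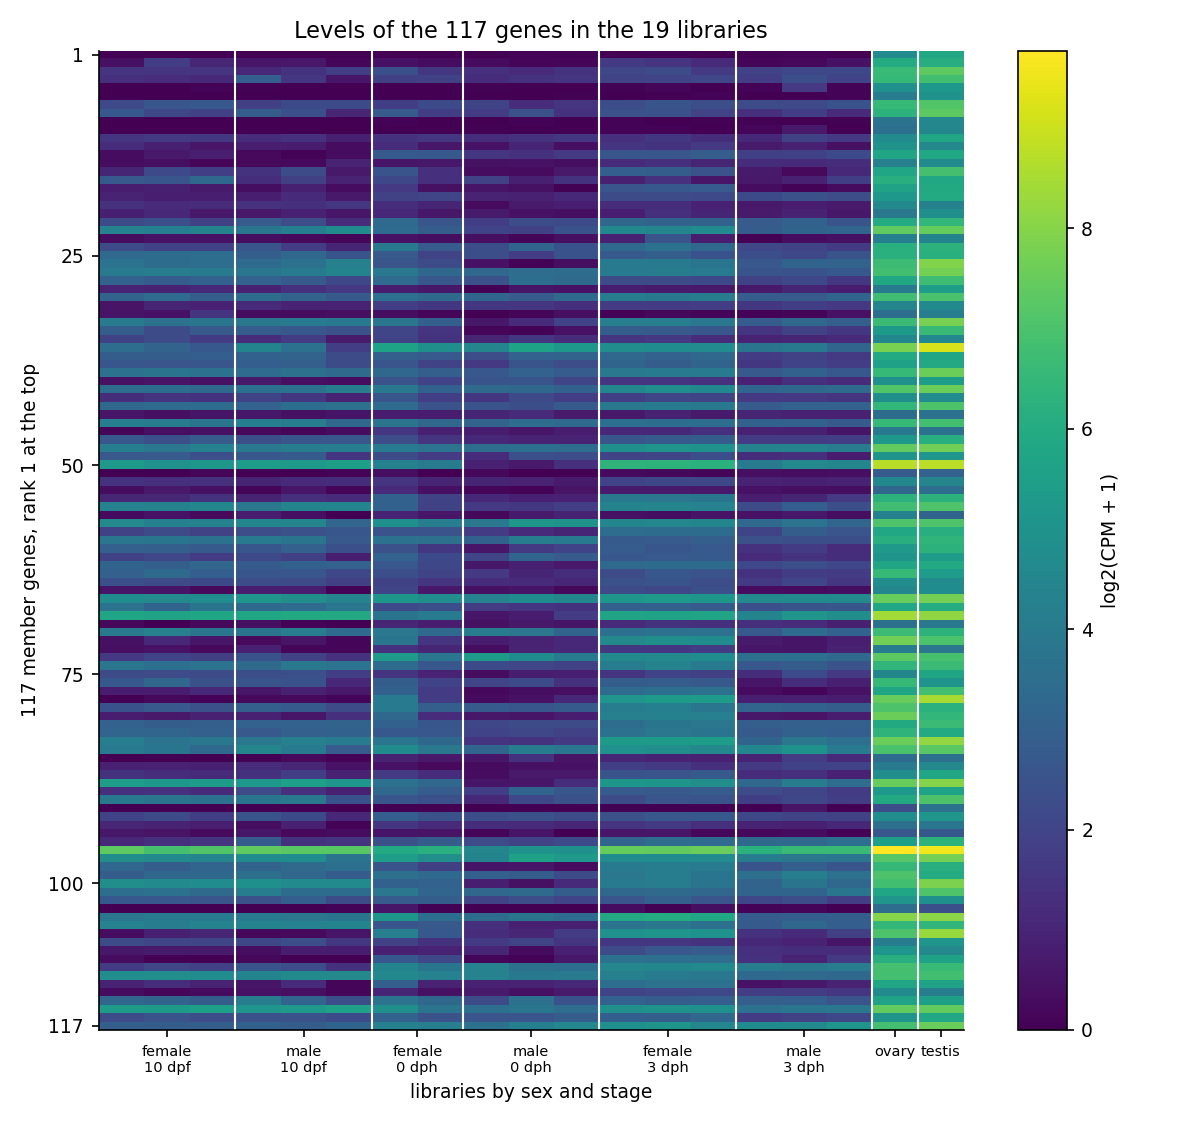
Levels of the 117 members (rows, ordered by rank) in the 19 libraries (columns, grouped by sex and stage), as log2(CPM + 1) on a colour scale. The ovary and testis columns at the right are the brightest in every row by the rule, while the early columns range from rows without signal to rows with signal in all groups.

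The members differed in how much of their signal was already present in early life. Some were at or under 3 counts in each early library and others had signal in every early group. The member ranked first, Nfu_g_1_017332, had 24.9 CPM in the ovary and 55.2 CPM in the testis and at most 2 counts in any of the 17 early libraries. Against a floor of 3 counts in the smallest early library, its ovary level was at least 129-fold higher. Nfu_g_1_024910 and Nfu_g_1_024898 were likewise at or under 3 counts in every early library, and their lower gonad level was at least 86.8-fold and 64.0-fold higher than that floor. The member ranked second, Nfu_g_1_002099, was at 63.8 CPM in the ovary and 66.6 CPM in the testis, at 1.24 to 2.19 CPM in 3 dph females and at 0.103 to 0.391 CPM in 3 dph males. The next member, Nfu_g_1_017699, had 94.1 CPM in the ovary and 161 CPM in the testis, and 1.2 to 4.29 CPM in the early libraries. The most abundant member, Nfu_g_1_019726 at rank 96, had 873 CPM in the ovary and 756 CPM in the testis and between 20.8 and 183 CPM in the early libraries.

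The highest of the 6 early group means was that of 3 dph females for 60 members, and a female group for 93 of the 117. The rule used this highest mean as its ceiling, and the share over all genes is not given, so these counts are a description. Summed over the members, the level was 896 to 990 CPM in 10 dpf females and 852 to 992 CPM in 10 dpf males, and the groups overlapped. At 0 dph it was 1007 and 644 CPM in the 2 female libraries, against 441 to 581 CPM in males. At 3 dph it was 1416 to 1483 CPM in females and 573 to 696 CPM in males, so that female and male libraries were apart at both trunk stages.

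**Figure D2:**
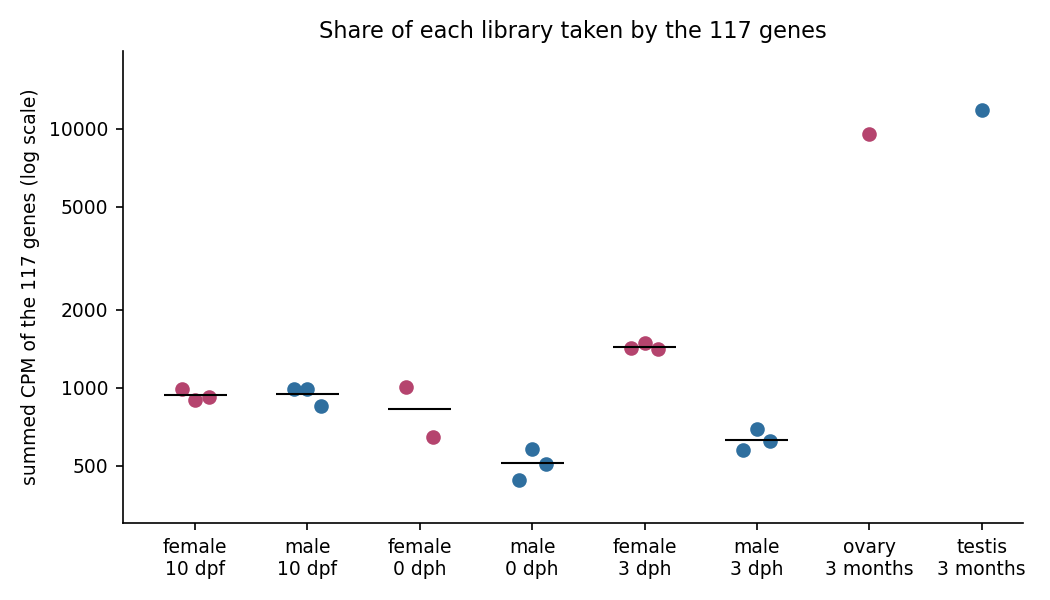
Summed CPM of the 117 members per library on a log axis, by sex and stage, with points for libraries and a bar for the mean of each replicated group. The 3 dph females lie between 1416 and 1483 CPM, above the 3 dph males with 573 to 696 CPM, and the ovary and testis lie at 9527 and 11798 CPM.

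Whether the members differ between the sexes before adulthood was tested with DESeq2 on the whole table of each stage, and genes with an adjusted p under 0.05 were called. On simulated counts DESeq2 made false calls at several times the rate that this threshold allows, and edgeR at a rate nearer to it. The simulated spread was estimated with edgeR, few genes were changed, and only sex differences or interactions were planted and tested. These rates thus need not hold for changes with age or where many genes differ. Counts by edgeR are thus given beside those by DESeq2. The shares of all tested genes that were called are those of the main DESeq2 fits. No such share is given for edgeR or the other alternative fits, so their counts cannot be set against one. The rule set a ceiling on the early levels but did not compare early groups with each other. In bulk samples, fewer cells of a type and less RNA per cell cannot be told apart.

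In whole embryos at 10 dpf, 1 of 91 members with an adjusted p was higher in females and 0 were higher in males, against 0.173% and 0.0544% of all tested genes. At an unadjusted p under 0.05 there were 4 of the 117 members, and 1 with a replicate block, and edgeR called 0. Of all 26740 genes, 1858 had an unadjusted p under 0.05 in the fit without a block. The median log2 fold change, females over males, was -0.07 for the members and -0.08 for all tested genes. In CPM, 8 of the 91 members had all females above all males and 2 the reverse, against 12.2% and 3.83% of all tested genes. The gene called was *herc2*, with 5.65, 5.13 and 8.78 CPM in females and 1.40, 2.59 and 0.964 CPM in males. All female values were above all male values (log2 fold change 1.89 ± 0.43, SE, DESeq2 adjusted p = 0.0142). The call was kept with a replicate block (DESeq2 adjusted p = 0.0189) and lost without any one of female replicates 1, 2 and 3 or male replicate 1 (adjusted p of 0.000902 to 0.9995 over all alternatives).

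At 0 dph, 21 of 104 tested members were higher in females and 0 were higher in males (DESeq2), against 2.11% and 1.20% of all tested genes. The members had a median log2 fold change of 0.55, and all tested genes of 0.01. Without female replicate 1 these medians were 0.18 and -0.02. For 53 of the 104 tested members both female libraries were above all male libraries in CPM and for 0 the reverse held, while 25.8% and 6.78% of all tested genes were apart in these directions. Among the 21, the log2 fold changes lay between 1.14 and 4.0 with a median of 2.91. The count depended on the test and on female replicate 1. By DESeq2, 34 of the 117 members and 2646 of all 26740 genes had an unadjusted p under 0.05. By edgeR 2 members were called at an adjusted p under 0.05 and 35 had an unadjusted p under 0.05, with no all-gene share given. Without female replicate 1 a single female library is left, and the members' median was the 0.18 given above. Female replicate 1 had the higher summed level of the 2 female libraries.

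The member with the smallest adjusted p at 0 dph was Nfu_g_1_020188. It had 18.5 and 15.6 CPM in females and 0.872, 0.635 and 1.57 CPM in males (log2 fold change 3.85 ± 0.43, DESeq2 adjusted p = 9.87e-16), and edgeR called it as well. Nfu_g_1_004527 had 11.7 and 8.61 CPM in females and 0.462, 0.519 and 1.35 CPM in males (log2 fold change 3.49 ± 0.52, DESeq2 adjusted p = 1.4e-08). Both female libraries were about alike for this pair of genes. Other called members rested on female replicate 1. Nfu_g_1_009578 had 15.9 CPM in female replicate 1 and 2.23 CPM in replicate 2, against 0.205, 0.404 and 1.19 CPM in males, and its call (adjusted p = 0.0010) was lost in the fit without female replicate 1 and in that without male replicate 2. None of the 13 genes with a symbol was called at 0 dph, although *taf4b* had 6.69 CPM in female replicate 1, against 0.989 CPM in replicate 2 and 0.872 to 1.19 CPM in males.

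At 3 dph, 72 of 110 tested members were higher in females and 1 was higher in males (DESeq2), against 13.7% and 5.19% of all tested genes. The members had a median log2 fold change of 0.95, and all tested genes of -0.08. All 3 female libraries were above all 3 male libraries for 83 of the 110 tested members, and all males above all females for 1, against 23.0% and 10.9% of all tested genes. The 72 members had log2 fold changes of 0.48 to 5.57 with a median of 1.38. Of these, 53 were at least 2-fold and 12 at least 8-fold higher in females. The share of all genes above these cut-offs is not given, so both counts are a description. edgeR called 74 members as higher in females, and leaving out single libraries gave 62 to 69. The 21 members called at 0 dph were all among the 72. For all genes the share called at both ages is not given, so this overlap too is a description.

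**Figure D3:**
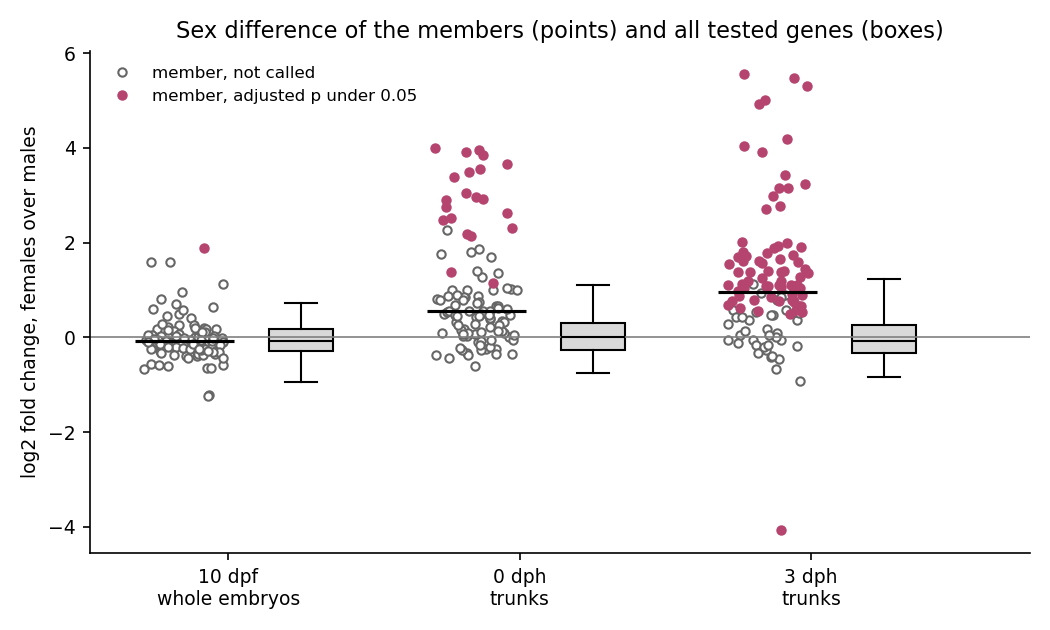
Log2 fold change of females over males (y axis) at 10 dpf, 0 dph and 3 dph. Points are tested members, filled where the DESeq2 adjusted p was under 0.05, with a bar at their median, and boxes show the quartiles of all tested genes with whiskers from the 5th to the 95th percentile. The members' median is -0.07 at 10 dpf, 0.55 at 0 dph (0.18 without female replicate 1) and 0.95 at 3 dph.

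The largest fold change at 3 dph was that of Nfu_g_1_009578, which had 33.1, 39.3 and 41.1 CPM in females and 0.790, 0.794 and 0.742 CPM in males (log2 fold change 5.57 ± 0.25, DESeq2 adjusted p = 7.17e-110). The smallest adjusted p was that of Nfu_g_1_004866, with 58.5, 64.0 and 56.8 CPM in females and 6.25, 6.67 and 6.76 CPM in males (log2 fold change 3.15 ± 0.13, adjusted p = 1.32e-125). Neither gene overlapped between the sexes.

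Of the 13 genes with a symbol, 10 were higher in females at 3 dph (DESeq2). *taf4b*, the TFIID subunit, had 10.6, 11.5 and 11.9 CPM in females and 0.378, 0.572 and 0.898 CPM in males (log2 fold change 4.19 ± 0.29, adjusted p = 5.14e-45). The meiotic gene *mei4* had 0.871, 4.84 and 0.671 CPM in females and 0.0343, 0.254 and 0.352 CPM in males, or 25, 141 and 20 counts against 1, 8 and 9 counts. All females were above all males, but replicate 2 was the highest by far, and the call (log2 fold change 3.23 ± 0.79, adjusted p = 0.000563) was lost without female replicate 2 or male replicate 2. *cdipt*, the phosphatidylinositol synthase, had 2.93, 3.33 and 3.29 CPM in females and 0.927, 0.826 and 0.898 CPM in males (log2 fold change 1.81 ± 0.30, adjusted p = 5.48e-08). *lmo4a* had 8.50, 7.35 and 8.95 CPM in females and 2.27, 2.79 and 2.15 CPM in males (log2 fold change 1.75 ± 0.24, adjusted p = 4.7e-12). These genes showed no overlap between the sexes.

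Smaller differences, again with all females above all males, were found for *rpp38* with a log2 fold change of 1.57 ± 0.24, *spryd3* with 1.37 ± 0.25, GDPD5 with 1.20 ± 0.20 and *SAMHD1* with 1.04 ± 0.16 (DESeq2 adjusted p of at most 5.38e-07). PVRL3 was called with 1.1 ± 0.30 (adjusted p = 0.00239), a call lost without female replicate 1, and *aldocb* with 0.58 ± 0.21 (adjusted p = 0.0335), a call that edgeR and the fit with a replicate block did not make and that held without a single library only where male replicate 2 was the one left out. The progesterone receptor gene *pgr* had 0.627, 0.652 and 0.570 CPM in females and 0.378, 0.286 and 0.273 CPM in males and was not called, like *herc2* and FAM190B.

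**Figure D4:**
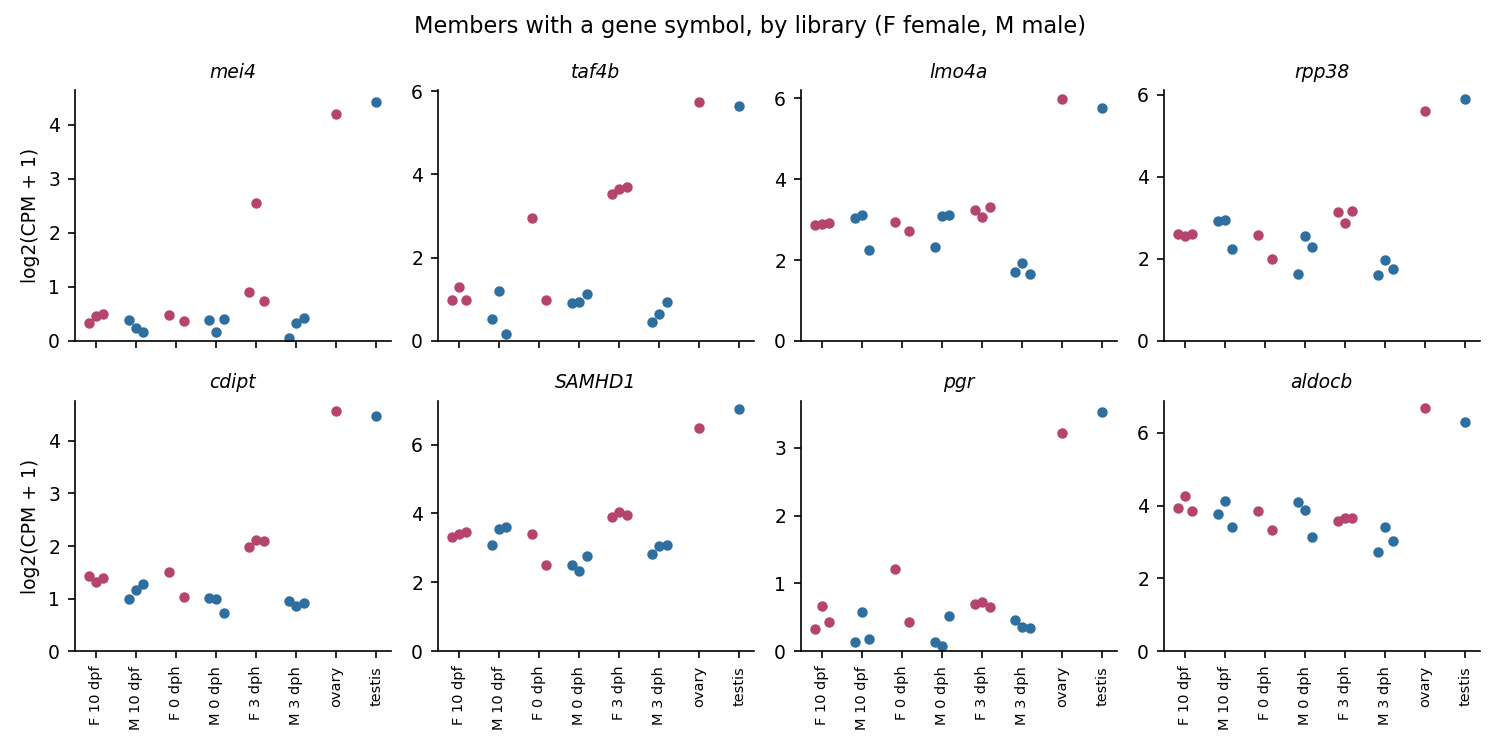
Levels of 8 members with a gene symbol in every library, as log2(CPM + 1) on the y axis, for females (F) and males (M) of each stage and for the adult ovary and testis. At 3 dph the female points lie above the male points in each panel, and for *taf4b* they range from 10.6 to 11.9 CPM against 0.378 to 0.898 CPM in males.

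The member higher in males at 3 dph was Nfu_g_1_007730, with 0.0348, 0.103 and 0 CPM in females and 0.0687, 2.10 and 0.0781 CPM in males. The female and male ranges overlapped, and 66 of the male counts came from replicate 2, against 2 in each of the other males. The call (log2 fold change -4.07 ± 1.38, DESeq2 adjusted p = 0.0215) was lost without male replicate 2.

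From 10 dpf to 0 dph age and tissue cannot be told apart, since whole embryos are set against trunks. In females 46 of 110 tested members were higher at 0 dph and 5 lower (DESeq2), against 31.0% and 27.5% of all tested genes. The female count depended on female replicate 1 of 0 dph, without which 1 female library is left at that age. In males 35 of 111 were higher and 21 lower, against 28.7% and 29.4%. By edgeR 46 members were higher and 5 lower in females, and 34 higher and 20 lower in males. The median log2 fold change of the members was 0.83 in females and 0.34 in males, against -0.0007 and -0.03 for all tested genes. Without female replicate 1 of 0 dph the female medians were 0.42 for the members and -0.03 for all tested genes. These directions rest on the scaling and on the choice of members. When the members were chosen after median-of-ratios scaling, 21 of 96 were higher and 12 lower in females, while 19 of 96 were higher and 27 lower in males, and the medians were 0.18 in females and 0.16 in males. The median-of-ratios factors of DESeq2 differ from library totals by 0.29 to 0.53 log2 units at 10 dpf and by -0.37 to -0.02 at 0 dph. Scaled by these factors, the members summed to 734 and 1021 in 0 dph females, against 620 to 693 in 10 dpf females, whereas the female CPM sums of both stages overlapped. In males the scaled sums were 537 to 687 at 0 dph, against 685 to 705 at 10 dpf, whereas all male CPM sums of 0 dph were below those of 10 dpf.

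Among the members that were higher at 0 dph in both sexes, Nfu_g_1_010212 had 4.69 and 2.92 CPM in 0 dph females and 0.349 to 0.428 CPM in 10 dpf females (log2 fold change 4.02 ± 0.51, DESeq2 adjusted p = 3.27e-14). In males it had 4.82, 4.79 and 3.08 CPM at 0 dph and 0.257 to 0.652 CPM at 10 dpf (4.16 ± 0.47, adjusted p = 1.33e-17). Nfu_g_1_022990 had 5.89 and 5.49 CPM in 0 dph females, against 0.257 to 0.756 CPM at 10 dpf (4.14 ± 0.50, adjusted p = 1.08e-15). Nfu_g_1_004113 and Nfu_g_1_019757 were called higher at 0 dph in both sexes as well, with log2 fold changes of 3.29 and 4.10 in females and 2.82 and 4.0 in males. For these genes the 0 dph libraries lay above all 10 dpf libraries of the same sex.

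Of the 21 members lower at 0 dph in males, 5 were also lower at 0 dph in females. Nfu_g_1_004527 had 0.462, 0.519 and 1.35 CPM in 0 dph males and 36.1, 44.9 and 33.7 CPM in 10 dpf males (log2 fold change -4.80 ± 0.34, DESeq2 adjusted p = 3e-42). In females it had 11.7 and 8.61 CPM at 0 dph and 43.9, 35.8 and 39.9 CPM at 10 dpf (log2 fold change -1.28 ± 0.31, adjusted p = 9.3e-05). Levels were thus lower at hatching in both sexes, with the males of 0 dph as the lowest group.

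Between 0 and 3 dph, with trunks at both ages, 54 of 112 tested members rose in females and 1 fell (DESeq2), against 20.4% and 17.7% of all tested genes. In males 43 of 113 rose and 17 fell, against 21.9% and 22.3%. By edgeR 50 rose and 1 fell in females, and 40 rose and 17 fell in males. The median log2 fold change of the members was 0.77 in females and 0.34 in males. For all tested genes it was 0.02 and -0.02. Among the 103 genes chosen after median-of-ratios scaling, 37 of 97 tested rose and 1 fell in females. In males 34 of 99 of these genes rose and 18 fell. Their medians were 0.56 in females and 0.27 in males. Of 112 members tested in both sexes, 32 rose in both. A rise was called in females with no call in males for 21, and the reverse held for 11. Of all genes tested in both sexes, 13.6%, 6.21% and 8.73% were in these classes. A missing call does not show that a level was unchanged. The member that fell in females, Nfu_g_1_010212, also fell in males, where the log2 fold change was -1.69 ± 0.29 (adjusted p = 7.68e-08). Its female call (-0.83 ± 0.32, adjusted p = 0.0261) was lost in the fit with a block, without female replicate 1 of 0 dph and without any one of the 3 dph females.

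Whether the change after hatching differed between the sexes was tested as a sex-by-age interaction over the 11 trunk libraries. It was called for 23 of 107 tested members, of which 14 were more female-biased at 3 than at 0 dph and 9 less (DESeq2), against 6.25% and 2.48% of all tested genes. edgeR called 7 and 6. Without female replicate 1 of 0 dph the first count was 27, and without female replicate 2 of 0 dph or female replicate 3 of 3 dph it was 8 or 9.

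**Figure D5:**
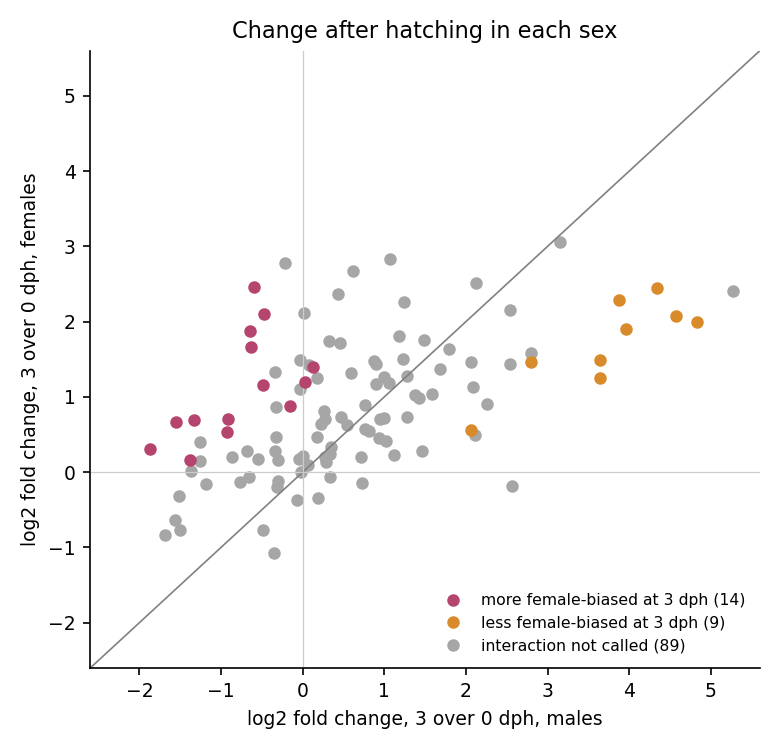
Log2 fold change from 0 to 3 dph in females (y axis) and males (x axis) for the 112 members tested in both sexes, with the line of equal change. The 14 members with a positive called interaction lie above the line with male changes near or below 0, and the 9 with a negative one lie below it at the right.

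The interaction that picked out the 14 members and the 9 members used the same 0 and 3 dph libraries, so their levels at these ages are given as a description. The summed level of the 14 that became more female-biased was 220 to 237 CPM in 3 dph females, against 83 to 167 CPM in 0 dph females, and 49.7 to 57.7 CPM in 3 dph males, against 75 to 112 CPM in 0 dph males. Nfu_g_1_004866 had an interaction of 2.30 ± 0.48 on the log2 scale (DESeq2 adjusted p = 8.95e-05), with 10.6 and 35.1 CPM in 0 dph females and 9.57 to 12.7 CPM in 0 dph males beside the 3 dph values above. In Nfu_g_1_009635 females rose (0.71 ± 0.22, adjusted p = 0.00472, lost without female replicate 2 of 0 dph) and males fell (-0.91 ± 0.20, adjusted p = 3.67e-05), the only member with called changes in opposite directions. *lmo4a* fell in males from 0 to 3 dph (-1.33 ± 0.29, adjusted p = 2.06e-05), and its interaction was 2.02 ± 0.42 (adjusted p = 0.000102). *taf4b* rose in females (1.87 ± 0.55, adjusted p = 0.00303), with an interaction of 2.51 ± 0.78 (adjusted p = 0.0198) that was lost under edgeR and without male replicate 3 of 0 dph, female replicate 3 of 3 dph or male replicate 1 or 2 of 3 dph.

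The summed level of the 9 members that became less female-biased was 175 to 211 CPM in 10 dpf females and 202 to 216 CPM in 10 dpf males, 64.3 and 70.6 CPM in 0 dph females and 4.5 to 9.3 CPM in 0 dph males, and 213 to 234 CPM in 3 dph females and 72.8 to 115 CPM in 3 dph males. Nfu_g_1_018661 had 4.92 and 3.76 CPM in 0 dph females and 0.410, 0.0577 and 0.270 CPM in 0 dph males, or 8, 1 and 5 counts in these males. At 3 dph it had 15.4, 15 and 13.0 CPM in females and 5.32, 7.78 and 7.58 CPM in males (interaction -2.84 ± 0.49, DESeq2 adjusted p = 9.27e-07). In the clone-type gene si:ch211-69g19.2 (Nfu_g_1_001144) males rose to 20.0, 33.1 and 27.1 CPM at 3 dph, against 0.513, 0.693 and 2.27 CPM at 0 dph (4.57 ± 0.40, adjusted p = 1.02e-28). At 0 and 3 dph the sexes did not overlap in either gene, nor did these ages within a sex.

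Marker genes that were not members moved in parallel with parts of these courses, and their part in the results was not tested. The cell division list was paired with 5 of 53 symbols and 8 identifiers (*BUB1*, *KIF20B*, *ect2*, *racgap1* and several copies of *CENPE*). They summed to 270 to 355 CPM in 10 dpf females and 293 to 386 CPM in 10 dpf males. At 0 dph the sums were 93.1 and 104 CPM in females and 32.5 to 39.9 CPM in males. At 3 dph they were 180 to 213 CPM in females and 116 to 168 CPM in males, with 533 CPM in the ovary and 2190 CPM in the testis. Gene by gene, 3 of 7 tested were higher in females at 0 dph and 2 of 8 at 3 dph, and 0 were lower (DESeq2). Their median log2 fold changes were 0.72 at 0 dph and 0.09 at 3 dph. *racgap1* and the *CENPE* copies Nfu_g_1_000353, Nfu_g_1_000419 and Nfu_g_1_000737 were not called between the sexes at any early stage. Summed, the globin genes *hbbe2* and *hbae1* also stood lowest in 0 dph males, with 41.0 to 127 CPM. Female replicates 1 and 2 of 0 dph had 210 and 1642 CPM. Neither gene was called between the sexes at 0 dph (DESeq2 adjusted p = 0.0814 and 0.144). At 3 dph the sums were 1452 to 2364 CPM in females and 1853 to 4733 CPM in males, unlike those of the members. The globins were low in the gonads, with 5.49 CPM in the ovary and 5.29 CPM in the testis.

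Genes of the meiosis, germ line and oocyte lists that were not members differed between the sexes too. The list of meiosis and recombination was paired with 8 of 60 symbols, 1 of them *mei4*. Of the other 7, 4 of 6 tested were higher in females at 0 dph and 4 of 6 at 3 dph, and 0 were lower (DESeq2). Those called were *rec8*, *rad21l1* and *rad54l* at both ages, *rad54b* at 0 dph and *brca2* at 3 dph. Not all of them mark the germ line. *rad54b* had 6.86 and 8.26 CPM in 0 dph females, below its 30.2 to 38.7 CPM in whole 10 dpf females and 25.9 to 67.4 CPM in 10 dpf males. *rec8*, a subunit of meiotic cohesin, had a log2 fold change of 4.80 ± 0.46 at 0 dph (adjusted p = 3.75e-21) and 3.5 ± 0.39 at 3 dph (adjusted p = 5.57e-18), but was not shared by the gonads at a high level, with 1.74 CPM in the ovary and 0.597 CPM in the testis. The list of germ line and piRNA genes was paired with 1 of 35 symbols, *tdrd6*, a tudor protein of germ granules. *tdrd6* had 52.7 to 62.2 CPM in 3 dph females and 3.81 to 8.44 CPM in 3 dph males. In the gonads it had 168 CPM in the ovary and 569 CPM in the testis. Of markers for a single gonad, *sybu*, the gene paired with the oocyte list of 20 symbols, had 585 CPM in the ovary and 1.62 CPM in the testis. It too was higher in young females, with 55.2 to 59.2 CPM in 3 dph females and 3.02 to 6.38 CPM in 3 dph males (log2 fold change 3.51 ± 0.21, DESeq2 adjusted p = 6.34e-58), and with 41.0 and 22.7 CPM in 0 dph females and 9.35 to 16.4 CPM in 0 dph males (1.23 ± 0.38, adjusted p = 0.0409). The study reports *sybu* as the upstream neighbour of the *gdf6* alleles on the sex chromosomes. In adult testes it found the *sybu* promoter hypermethylated on the Y chromosome and transcripts from the X chromosome only. In 0 dph trunks the study took *sybu* as a marker of oocyte development, by RT-qPCR. There *sybu* dropped close to male levels in mosaic *foxl2l* mutants of females and phenofemales (XY fish with a mutated *gdf6Y*), significantly in phenofemales. *sybu* was also significantly lower in XX animals with a *gdf6Y* transgene than in females without it. Whether these findings bear on the sex difference of *sybu* in the trunk libraries was not tested. The part of germ cell and oocyte markers in the members' differences was not tested. For the testis, *dnah12* and *DNAH8* of motile cilia summed to 1.39 CPM in the ovary and 207 CPM in the testis. Neither was called between the sexes at an early stage. The list of gonadal somatic cells was paired with 2 of 26 symbols and 3 identifiers (*sox9a* and copies of *cyp11c1*). Of these, 0 were called between the sexes at any early stage.

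Genes that met the count and level thresholds in 1 gonad and were at least 1.5 log2 units lower in the other are set beside the members. No further condition was put on that other gonad, so its level could also lie above the early groups. Of 625 such genes higher in the ovary, 464 of 612 tested were higher in 3 dph females, with a median log2 fold change of 1.70. Of 1350 such genes higher in the testis, 213 of 1227 tested were higher in 3 dph females, with a median of 0.10. Of 681 genes that met the rule except for lying only 1 to 2 log2 units above the early groups, 336 of 678 were higher in 3 dph females, with a median of 0.50. At 0 dph the medians were 0.55 for the members, 0.54 for the ovary genes and 0.17 for the testis genes, and without female replicate 1 they were 0.18, 0.13 and 0.14. These sets were formed with the same gonad libraries and differ in level, and the differences between them were not tested.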

How the data were processed

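RNA-seq counts of 19 libraries of *N. furzeri* (strain GRZ) were analysed, with sex, age, tissue and replicate number taken from the sample labels. The authors filtered reads with sga, aligned the remaining reads to the species' genome using STAR and counted reads per gene with summarizeOverlaps. The counting mode and the use of strand are not given in the sources used here. The deposited values are raw counts, without normalisation. Overlapping or near-identical genes can lose or share reads in such counting. Library totals lay between 11717979 and 31493908 counts.

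Members were chosen on log2(CPM + 1) by the rule in the report, which allowed up to 200 genes and found 117. The members, the marker lists and the comparisons were chosen with earlier results of these data known. Tests were run on all genes with DESeq2 (version 1.42.0, R 4.3.3), with median-of-ratios size factors, genes with at least 1 count and independent filtering at 0.05. Sexes were compared within each stage. Ages were compared in 1 fit over the 11 trunk libraries, and 10 dpf with 0 dph in another fit, each with sex, age and their interaction. Adjusted p-values are Benjamini-Hochberg values over all genes, and those left empty stayed empty. Printed values per library are CPM, while fold changes use the size factors. Genes named are the members with a gene symbol, the 3 top ranks, and up to 2 members with the smallest adjusted p per comparison and direction. No identifier (0) matched the RefSeq gene table, so no position or sequence is given.

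Alternatives were edgeR (version 4.0.16) with TMM, TMM factors in DESeq2, at least 10 counts, no independent filtering, a replicate block, 1 fit over 17 libraries, each library left out, other scalings and a pseudocount of 0.5 for the rule. Selecting the members after median-of-ratios scaling, and summing them with that scaling or without the most abundant member, was chosen after seeing the data. On simulated data both tools gave the right direction for nearly all changed genes. DESeq2 made false calls at several times the rate that its threshold of 0.05 allows, and edgeR at or somewhat above that rate. The simulation used the spread that edgeR estimated and changed few genes, which may favour edgeR. It planted and tested only sex differences or interactions, not changes with age or stage.

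Equal replicate numbers were checked by correlating the deviations of same-numbered female and male libraries from their group means. All 3 correlations at 10 dpf (0.38, 0.14 and 0.46) exceeded 0.1, a limit set for this check. They are not independent of each other, since the deviations are taken from group means. The labels do not say what a number stands for, and the sample names of same-numbered females and males differ. Whether the numbers pair these libraries is thus not known. The main fits have no replicate term, and the replicate block is an alternative.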

Additional observations from a re-analysis of the deposited data

Results flagged for a closer look

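For 23 of 107 tested members the change between 0 and 3 dph differed between females and males by the interaction test of DESeq2, and edgeR called fewer. There were 14 members more female-biased at 3 than at 0 dph and 9 less female-biased, with the shares of all tested genes given in the report.

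Among the genes named, positive interactions on the log2 scale were found for *taf4b* (2.51), Nfu_g_1_004866 (2.30), *lmo4a* (2.02), *rpp38* (1.64), Nfu_g_1_009635 (1.62), *spryd3* (1.45) and GDPD5 (1.03). For *lmo4a* and Nfu_g_1_009635 the 3 dph males were below all 0 dph males. The calls of *taf4b*, *rpp38* and GDPD5 were lost under edgeR, and that of *spryd3* without female replicate 2 of 0 dph.

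Negative interactions were found for Nfu_g_1_018661 (-2.84), si:ch211-69g19.2 (-2.49), Nfu_g_1_022047 (-2.39), Nfu_g_1_004527 (-2.06) and Nfu_g_1_020188 (-1.90). These 5 calls were kept by edgeR and in every fit that left out a library. Nfu_g_1_022047 had 7.20 and 7.37 CPM in 0 dph females and 0.346 to 1.30 CPM in 0 dph males, and its female and male ranges at 3 dph were 12.6 to 16.2 CPM and 7.72 to 12.7 CPM.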

How the results depend on the processing

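The choice of members depended on the scaling. After median-of-ratios scaling of all libraries the rule gave 103 genes, of which 73 were among the 117, and with TMM 95, of which 67 were. With a pseudocount of 0.5 it gave 153, which held all 117, and leaving out single early libraries kept 109 to 117. Of the 103 genes chosen after median-of-ratios scaling, 13 were higher in females at 0 dph and 57 at 3 dph, and between 0 dph and 10 dpf 21 were higher and 12 lower in females and 19 higher and 27 lower in males.

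With edgeR, 0 members were called as higher in females at 10 dpf, 2 at 0 dph and 74 at 3 dph, 0 as higher in males at 3 dph, and 7 as more female-biased at 3 dph. In 1 fit over 17 libraries these counts were 0 at 10 dpf and 59 at 3 dph for females and 0 at 3 dph for males. With a replicate block, 12 members were called at 0 dph, 63 at 3 dph and 0 as falling in females after hatching, and no other count of called members moved by over 1.5 times. At 0 dph and 3 dph the numbers did not pair the libraries by the limit of 0.1.

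Leaving out single libraries gave 0 to 1 member at 10 dpf, 6 to 21 at 0 dph and 62 to 69 at 3 dph as higher in females, and 0 to 1 as higher in males at 3 dph. It gave 0 to 3 as falling in females after hatching, 8 to 27 as more female-biased at 3 dph, and 28 to 51 as higher at 0 dph than at 10 dpf in females. Of 109 called results of the named genes, 71 were called under all alternatives and 0 changed sign. The 3 dph libraries were deeper than those of 0 dph, so low genes were easier to call there.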
